A study of Homo sapiens with 6 samples.

Results

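The genes described here are 10 feedback and early-response genes of the ERK pathway, namely the dual-specificity phosphatases DUSP1, DUSP4, DUSP5 and DUSP6, the Sprouty genes SPRY2 and SPRY4, the Sprouty-related genes SPRED1 and SPRED2, and the immediate-early genes EGR1 and IER3. They were chosen by name with earlier results of these data known, so their counts and medians beside those of all probes are a description. Every array probe that the platform annotation assigns to one of them was taken, each on its own. This gave 15 of the 47319 probes on the array, for 10 of 20046 named genes. Of the 15 probes, 12 were detected on at least 2 arrays (detection p under 0.05) and entered the tests, and 9 of these, 1 for each gene except DUSP4, were detected on all 6 arrays. The arrays measured total RNA of A549 cells, an established line from a human lung adenocarcinoma, 24 h after lipid transfection with a miR-608 mimic, a miR-552-3p mimic or a negative control mimic, a short synthetic RNA double strand in each case. Each of the 3 groups has 2 arrays, and all groups share the cell line and the transfection reagent. The series title gives the question as which genes each microRNA silences. The labels leave unsaid whether replicate arrays stem from different cultures. The p-values here thus set group differences against the spread between these arrays only, and that spread may be technical. Having 2 arrays a group also limits the precision.

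ERK is the last kinase of the cascade that runs from growth factor receptors through RAS, RAF and MEK. Active ERK switches on immediate-early transcription factors within minutes and, with them, the genes of its own inhibitors. The dual-specificity phosphatases remove phosphate from ERK and related kinases, and the Sprouty and SPRED proteins act further up, at the receptors and at RAS. In lung adenocarcinoma, where RAS is often mutated, transcripts of these feedback genes are widely used as a readout of ERK pathway output.

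The sequences of both mature microRNAs are shown because the seed, bases 2 to 8 and here in capitals, is the stretch that pairs with target transcripts, and the mimics differ in it. They are from RefSeq with the build GRCh38.p14, where hsa-miR-608 lies at chr10:100975000-100975024 on the plus strand and hsa-miR-552-3p at chr1:34669614-34669634 on the minus strand.
hsa-miR-608: aGGGGUGGuguugggacagcuccgu
hsa-miR-552-3p: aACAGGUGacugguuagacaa

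RefSeq promoter windows from 250 bases before to 50 bases after each listed start were taken here for 7 of the 10 genes (DUSP1, DUSP6, SPRY2, SPRY4, SPRED1, SPRED2 and EGR1). They were searched on both strands for an AP-1 motif (TGACTCA), a cyclic AMP response element (TGACGTCA), an EGR motif (GCGTGGGCG), an ETS motif (CCGGAAGT) and the CArG box of serum response factor, classic elements of early-response genes. SPRY2 had 3 windows, SPRED2 had 2 and each other gene had 1. Matches were found in 3 of all these windows, which are printed with the match in capitals. The EGR1 window (chr5:138465229-138465528, plus strand) held 2 CArG boxes, which begin 105 and 83 bases before the start site. The DUSP1 window (chr5:172771146-172771445, minus strand) held a cyclic AMP response element 125 bases before it. The window of the second listed start of SPRED2 (chr2:65366729-65367028, minus strand) held an AP-1 motif 6 bases before it.
EGR1: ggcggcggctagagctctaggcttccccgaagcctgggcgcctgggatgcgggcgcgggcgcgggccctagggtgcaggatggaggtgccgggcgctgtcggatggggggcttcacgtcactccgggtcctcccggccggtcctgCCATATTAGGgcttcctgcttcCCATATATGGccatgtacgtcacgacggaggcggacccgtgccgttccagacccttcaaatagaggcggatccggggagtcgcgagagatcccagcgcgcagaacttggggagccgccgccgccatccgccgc
DUSP1: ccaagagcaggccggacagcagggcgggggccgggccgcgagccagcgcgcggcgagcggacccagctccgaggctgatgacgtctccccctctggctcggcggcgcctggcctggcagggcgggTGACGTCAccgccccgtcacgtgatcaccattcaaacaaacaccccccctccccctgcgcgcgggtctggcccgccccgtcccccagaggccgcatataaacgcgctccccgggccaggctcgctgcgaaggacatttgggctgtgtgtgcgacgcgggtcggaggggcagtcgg
SPRED2: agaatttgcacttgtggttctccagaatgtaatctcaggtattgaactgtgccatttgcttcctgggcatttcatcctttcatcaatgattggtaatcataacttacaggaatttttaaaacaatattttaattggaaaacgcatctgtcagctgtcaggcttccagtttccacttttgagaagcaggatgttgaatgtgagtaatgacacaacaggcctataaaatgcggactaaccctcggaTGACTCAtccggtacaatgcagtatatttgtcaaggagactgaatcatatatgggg
Of 35116 promoter windows of this length, 1.29% held a CArG box, 1.85% the cyclic AMP response element, 4.95% the AP-1 motif, 4.14% the ETS motif and 0.795% the EGR motif. A match describes these letters only and is not a measured binding site.

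The 6 arrays were similar in brightness, with a median signal between 181.7 and 200.7 and 18550 to 19758 probes detected. Arrays of the same group correlated at 0.993 to 0.994 across probes and arrays of different groups at 0.968 to 0.978. Of 5 epithelial marker genes all 5 were detected, while none of the 5 alveolar type II genes with a probe and none of 3 endothelial genes was. The labelled line thus showed its epithelial markers and no detected alveolar ones. COL1A1 and COL1A2 were the detected ones among 6 fibroblast genes, and CD14 and CD68 among 5 immune genes, with the defining immune genes PTPRC and CD3E not detected. All 8 epithelial probes were tested. With miR-608, 2 of them were higher on the log2 scale, CDH1 by 0.62 (adjusted p = 0.00503) and KRT8 by 0.41 (0.0210). With miR-552-3p, 2 were higher, 1 each of KRT18 and KRT19, and 4 lower, the 3 of EPCAM and that of CDH1. Both KRT18 probes were dim, with signals of 211 to 294. The called one (ILMN_1730848) was detected on 1 of 2 control arrays, and the other was not called with miR-552-3p (0.15, adjusted p = 0.571). Of the 4 tested immune probes, 2 of CD68 were higher and that of CD14 was lower with miR-552-3p, by 0.84 and -1.22 on the log2 scale for the CD68 probe ILMN_1714861 and the CD14 probe (adjusted p = 0.00785 and 0.00135). The summed signal of the epithelial list was 50025 to 51022 with miR-608, 35114 to 38186 with miR-552-3p and 44532 to 46655 with the control. That of the immune list was 5289 to 5914 with miR-608, 7578 to 8245 with miR-552-3p and 6081 to 6630 with the control. Single bright probes weigh most in such sums. The part of these shifts in the results below was not tested.

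Feedback genes changed in both directions with either mimic. With miR-608, DUSP5, DUSP6, IER3 and SPRED1 rose and EGR1 fell, and a probe of DUSP4 that was detected on no miR-608 array was lower. With miR-552-3p, DUSP5, SPRY2, DUSP1, DUSP6, IER3, SPRY4 and SPRED1 rose and EGR1 and SPRED2 fell. Against the control, 5 of the 12 tested probes were higher and 2 lower with miR-608, where 28.4% of all 20749 tested probes were called in either direction (14.0% higher and 14.4% lower). With miR-552-3p, 8 probes were higher and 2 lower, where the background was 30.9% (14.7% higher and 16.1% lower). Those 10 calls became 4 without miR-552-3p array 2, and 5 without miR-552-3p array 1, without control array 1 or with no detection filter. For miR-608 the median log2 difference of the 12 probes was 0.28, against 0.02 over all tested probes, and for miR-552-3p it was 0.43, against 0.03.

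The DUSP4 probe and the dim DUSP6 probe passed the detection filter mainly through groups where they are high, so counts that include them favour a difference. Among the 9 probes detected on all arrays, 5 were called with miR-608 and all 9 with miR-552-3p, where the background among probes detected on all arrays was 33.0% and 35.6%. The normalized arrays did not overlap between mimic and control for 11 of the 12 probes in either comparison, where this held for 65.7% of all tested probes in the miR-608 comparison and 67.0% in the miR-552-3p one. Both comparisons use the same 2 control arrays. In bulk RNA, fewer cells of a kind and less RNA per cell cannot be told apart. Signals below are the deposited linear intensities, and differences are log2 differences ± SE of normalized signals from limma with 2 arrays per group and p-values adjusted over all tested probes (Benjamini-Hochberg).

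**Figure D1:**
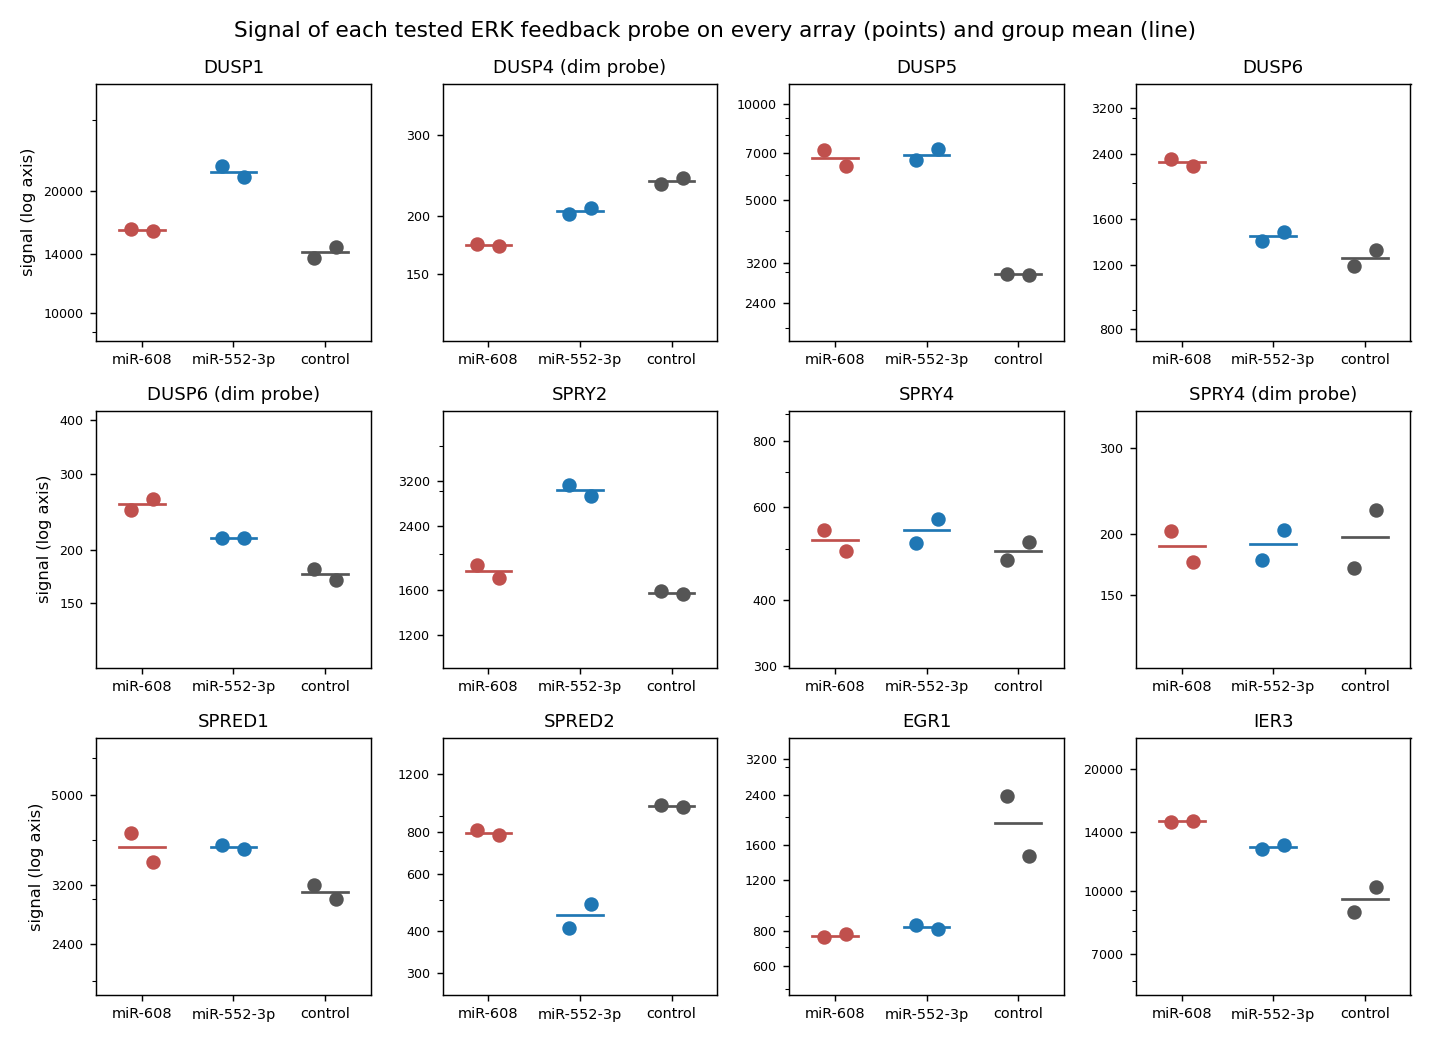
Deposited signal (linear intensity on a log axis) of the 12 tested probes, 1 panel each, with 1 point per array for miR-608, miR-552-3p and the control. EGR1 is highest on the control arrays, at 2376 and 1459, and DUSP5 is lowest there, at 2951 and 2926.

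The nuclear phosphatase DUSP5, which acts on ERK itself, had signals of 7159 and 6411 on the miR-608 arrays, 6668 and 7217 on the miR-552-3p arrays, and 2951 and 2926 on the control arrays. All 4 mimic arrays lay above both control arrays, and the mimics overlapped each other. DUSP5 rose by 1.32 ± 0.08 with miR-608 (2.50-fold, adjusted p = 0.00167) and by 1.35 ± 0.08 with miR-552-3p (2.56-fold, adjusted p = 0.00107). The difference between the mimics was -0.03 ± 0.08 (95% interval -0.25 to 0.18, adjusted p = 0.790).

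DUSP6, the cytoplasmic ERK phosphatase, had 2 probes of different brightness. The bright one (ILMN_2396020) gave signals of 2333 and 2230 on the miR-608 arrays, 1394 and 1476 on the miR-552-3p arrays, and 1192 and 1315 on the control arrays. The arrays fell into 3 levels without overlap, highest with miR-608. It rose by 1.08 ± 0.08 with miR-608 (2.11-fold, adjusted p = 0.00186) and by 0.41 ± 0.08 with miR-552-3p (1.33-fold, adjusted p = 0.0146). The second call was lost with median scaling (adjusted p = 0.0554), with no detection filter (0.0525), and without control array 1 (0.0722) or either miR-552-3p array (0.0649 and 0.0702). The dim probe (ILMN_1677466) gave 247 and 263 on the miR-608 arrays, 212 and 213 on the miR-552-3p arrays, and 181 and 170 on the control arrays. It was not detected on either control array, so its rise is a bound, at least 1.51-fold with miR-608 (adjusted p = 0.00785) and at least 1.09-fold with miR-552-3p (adjusted p = 0.0298). The group means had the same order at both probes. However, the dim probe entered the tests through its mimic arrays only, and its difference between the mimics did not pass (adjusted p = 0.0780). The dim probe's call was lost without control array 2 for miR-608 (adjusted p = 0.0501) and for miR-552-3p with no detection filter, with an intensity trend and when any 1 control or miR-552-3p array was left out (0.0884 to 0.127 over those 4 arrays).

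DUSP1, a nuclear phosphatase that also acts on the stress kinases p38 and JNK, was the brightest of the genes. It had signals of 16098 and 15923 on the miR-608 arrays, 23078 and 21680 on the miR-552-3p arrays, and 13686 and 14559 on the control arrays. The miR-552-3p arrays stood highest and the miR-608 arrays lay between them and the control, without overlap. DUSP1 rose by 0.66 ± 0.08 with miR-552-3p (1.58-fold, adjusted p = 0.00440). The difference of 0.22 ± 0.08 with miR-608 did not pass (adjusted p = 0.0988), but passed on the authors' normalized values (0.0386) and with an intensity trend (0.00749).

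DUSP4, another nuclear phosphatase, was near the detection limit. Its tested probe (ILMN_2283398) gave signals of 174 and 172 on the miR-608 arrays, 202 and 208 on the miR-552-3p arrays, and 235 and 242 on the control arrays, and it was detected on 0, 1 and 2 of the 2 arrays of these groups. The miR-608 arrays were lowest, at least 1.20-fold lower than the control (adjusted p = 0.00484), for a probe that entered the tests through its control arrays and 1 miR-552-3p array. The difference of -0.29 ± 0.10 with miR-552-3p did not pass (adjusted p = 0.0920). The other DUSP4 probe (ILMN_1808391) was detected on 1 of 6 arrays and not tested. Its signals were 214 and 186 on the miR-608 arrays, 202.2 and 202.3 on the miR-552-3p arrays, and 180 and 200.4 on the control arrays, so that it did not share the order of the tested probe.

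SPRY2, an adaptor that restrains receptor tyrosine kinase signalling to RAS, had signals of 1876 and 1720 on the miR-608 arrays, 3121 and 2907 on the miR-552-3p arrays, and 1583 and 1556 on the control arrays. The miR-552-3p arrays stood far above the other 4, while those of miR-608 were slightly above the control. SPRY2 rose by 1.14 ± 0.09 with miR-552-3p (2.20-fold, adjusted p = 0.00179). The difference of 0.32 ± 0.09 with miR-608 did not pass (adjusted p = 0.0552), although it passed in 7 of 18 alternative settings, among them the authors' normalized values (0.0156).

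SPRY4, its paralog, changed less. Its bright probe (ILMN_2086105) had signals of 543 and 496 on the miR-608 arrays, 514 and 570 on the miR-552-3p arrays, and 478 and 516 on the control arrays. The groups overlapped in these signals and not after normalization. The gene rose by 0.43 ± 0.09 with miR-552-3p (1.35-fold, adjusted p = 0.0201) and the difference of 0.25 ± 0.09 with miR-608 did not pass (adjusted p = 0.0979). The miR-552-3p call was lost with median scaling (adjusted p = 0.112), with no detection filter (0.0619), and without control array 1 (0.0940), control array 2 (0.0660) or miR-552-3p array 2 (0.0904). The other 3 SPRY4 probes gave signals between 170 and 242, each detected on at most 2 of 6 arrays, and the tested one of them (ILMN_1797596) differed by -0.13 ± 0.29 with miR-608 (adjusted p = 0.784) and by 0.04 ± 0.29 with miR-552-3p (0.933).

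SPRED1, which brings the RAS inactivator neurofibromin to the membrane, had signals of 4132 and 3594 on the miR-608 arrays, 3910 and 3828 on the miR-552-3p arrays, and 3204 and 2988 on the control arrays. All mimic arrays lay above the control arrays. The rise was 0.41 ± 0.10 with miR-608 (1.33-fold, adjusted p = 0.0398) and 0.42 ± 0.10 with miR-552-3p (1.34-fold, adjusted p = 0.0336). Both calls were lost when any 1 of the 6 arrays was left out, with adjusted p of 0.0683 to 0.155 for miR-608 and 0.0505 to 0.135 for miR-552-3p. They were also lost with only the groups compared (0.0692 for miR-608 and 0.0505 for miR-552-3p) and with no detection filter (0.105 and 0.0885).

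SPRED2, a relative with the same action on RAS, went the other way. It had signals of 815 and 783 on the miR-608 arrays, 411 and 486 on the miR-552-3p arrays, and 968 and 956 on the control arrays. The miR-552-3p arrays were the low ones, with the miR-608 arrays near but below the control. SPRED2 fell by 1.19 ± 0.12 on the log2 scale with miR-552-3p (2.29-fold lower, adjusted p = 0.00300), and its difference of -0.19 ± 0.12 with miR-608 did not pass (adjusted p = 0.298).

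EGR1, a zinc finger transcription factor that ERK induces within minutes through serum response factor, had signals of 760 and 775 on the miR-608 arrays, 834 and 808 on the miR-552-3p arrays, and 2376 and 1459 on the control arrays. The mimic arrays were close together and well below both control arrays. On the log2 scale the control arrays differed more from each other than for any other of the 10 genes' probes detected on all arrays. EGR1 fell by 1.35 ± 0.28 with miR-608 (2.56-fold lower, adjusted p = 0.0232) and fell by 1.13 ± 0.28 with miR-552-3p (2.19-fold lower, adjusted p = 0.0356). Without control array 1 the difference was -0.92 for miR-608 and -0.70 for miR-552-3p. The miR-608 call was lost without miR-608 array 1 (adjusted p = 0.0981) or array 2 (0.0827). The miR-552-3p call was lost without miR-552-3p array 1 (0.108) or array 2 (0.131), without either miR-608 array or with only the groups compared (0.0644) and with no detection filter (0.0679).

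IER3, an early-response gene whose product binds and is phosphorylated by ERK and affects cell survival, had signals of 14827 and 14925 on the miR-608 arrays, 12745 and 13033 on the miR-552-3p arrays, and 8885 and 10242 on the control arrays. The order of groups was the same as for DUSP6, without overlap. IER3 rose by 0.70 ± 0.09 with miR-608 (1.62-fold, adjusted p = 0.00582) and by 0.47 ± 0.09 with miR-552-3p (1.39-fold, adjusted p = 0.0142). The miR-552-3p call was lost without control array 1 (adjusted p = 0.0666) or either miR-552-3p array (0.0696 and 0.0625).

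**Figure D2:**
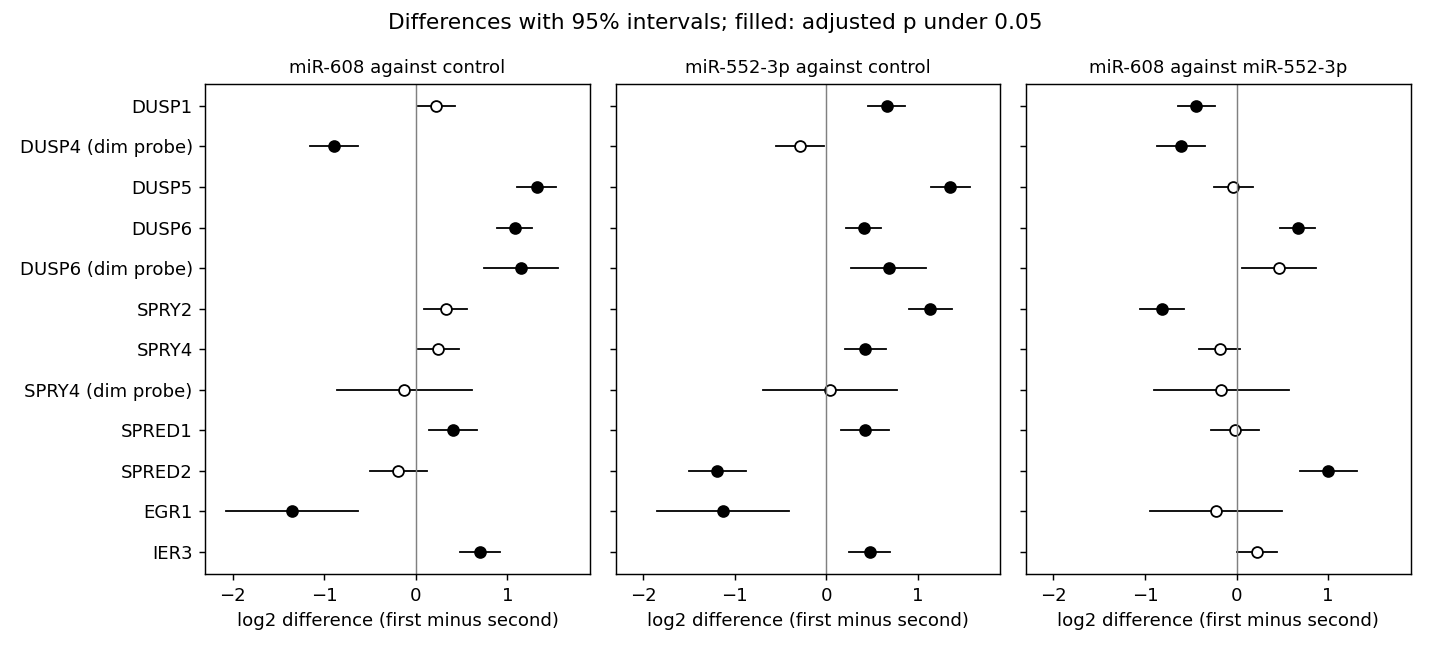
Log2 differences of the tested probes with 95% intervals, for miR-608 against control, miR-552-3p against control and miR-608 against miR-552-3p. DUSP5 lies at 1.32 and 1.35 against the control and at -0.03 between the mimics, with the difference of a dim probe against an undetected group drawn as measured, while SPRED2 and SPRY2 stand apart between the mimics, at 1.00 and -0.81.

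Compared with one another, the mimics differed at SPRED2, DUSP6, SPRY2 and DUSP1. With miR-608 compared with miR-552-3p, 2 of the 12 probes were higher and 3 lower, where the background was 36.5% of all tested probes (18.3% higher and 18.2% lower). Of the 9 probes detected on all arrays 4 were called, where the background was 41.9%, and the arrays of the mimics did not overlap for 9 of the 12 probes, where this held for 69.3% of all. SPRED2 was higher with miR-608 by 1.00 ± 0.12 (2.00-fold, adjusted p = 0.00358), and the bright DUSP6 probe by 0.67 ± 0.08 (adjusted p = 0.00280). SPRY2 was lower with miR-608, with a log2 difference of -0.81 ± 0.09 (adjusted p = 0.00291). The third lower probe, that of DUSP4, was detected on 0 of 2 miR-608 arrays and 1 of 2 miR-552-3p arrays, so no fold is given for it, and its call (adjusted p = 0.00950) was lost with an intensity trend (0.0826) and without miR-608 array 1 (0.0502). For DUSP1 the difference was -0.44 ± 0.08 (adjusted p = 0.0114), lost without miR-608 array 1 (0.0589) or miR-552-3p array 1 (0.0602).

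For the other genes no difference between the mimics passed. The interval of SPRED1 was -0.28 to 0.25 around -0.01 ± 0.10 (adjusted p = 0.928) and that of EGR1 -0.94 to 0.49 around -0.23 ± 0.28 (adjusted p = 0.580). IER3 differed by 0.22 ± 0.09 (adjusted p = 0.102, but 0.0382 on the authors' normalized values and 0.00776 with an intensity trend), the dim DUSP6 probe by 0.46 ± 0.16 (0.0780, but 0.0266 without miR-608 array 1) and SPRY4 by -0.18 ± 0.09 (adjusted p = 0.169). Wide intervals such as that of EGR1 do not show that the mimics acted alike.

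**Figure D3:**
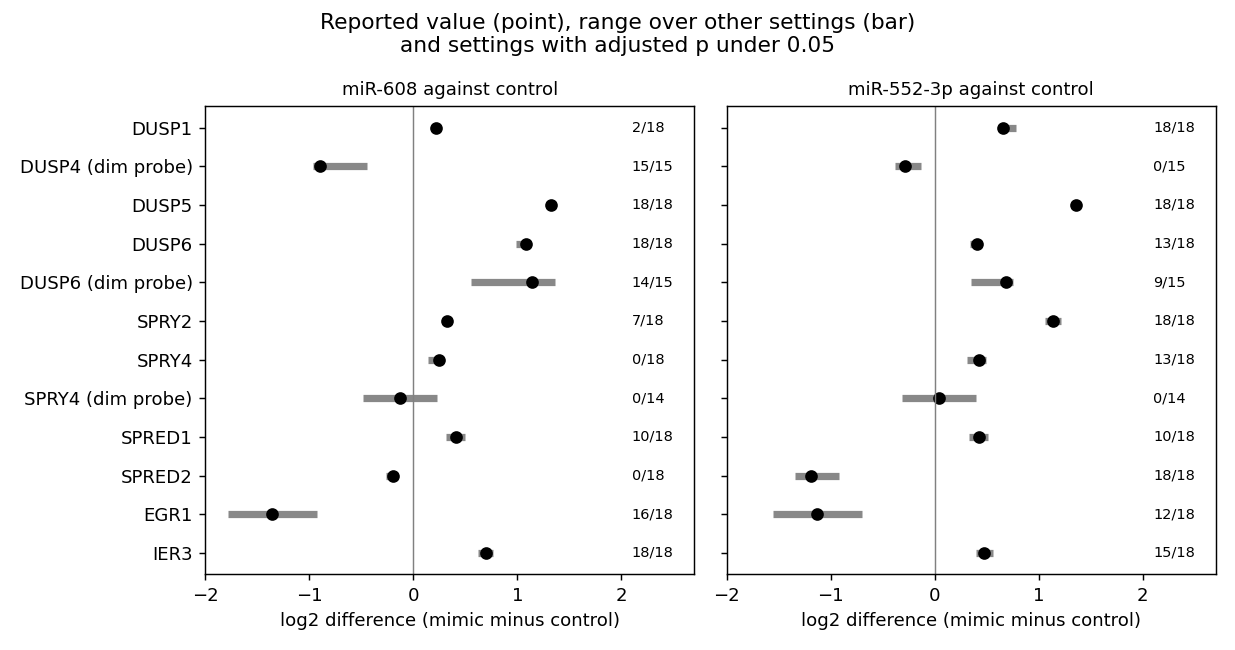
Log2 differences of the tested probes against the control, with a point for the reported value, a bar for its range over the alternative settings, and the number of settings with a call beside it. Calls were made under all 18 alternative settings for DUSP5 with either mimic, for the bright DUSP6 probe and IER3 with miR-608, and for DUSP1, SPRY2 and SPRED2 with miR-552-3p.

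The lists of other pathway genes below were also chosen with earlier results of these data known. Among 9 genes of ERK transcriptional output, 8 were measured, by 11 probes. With miR-608, 6 probes were higher and 2 lower, and with miR-552-3p 5 were higher and 2 lower, with medians of 0.47 and 0.52. Over all tested probes 28.4% were called for miR-608 and 30.9% for miR-552-3p, close to evenly by direction, and the medians were 0.02 and 0.03. FOSL1, an AP-1 subunit stabilised by ERK, had signals of 1155 and 1067 on the miR-608 arrays, 2696 and 2934 on the miR-552-3p arrays, and 377 and 429 on the control arrays. It rose by 2.05 ± 0.10 (adjusted p = 0.00158) with miR-608 and by 3.54 ± 0.10 (0.000997) with miR-552-3p. The receptor kinase EPHA2 rose by 1.53 ± 0.09 with miR-608 (0.00163) and by 1.72 ± 0.09 with miR-552-3p (0.00100). The ETS factor ETV5 rose by 0.47 with miR-608 (0.0215), and its difference of -0.38 with miR-552-3p was a fall (0.0364), with the same directions called at its other probe. For PHLDA1, a pleckstrin homology protein, probe ILMN_1687978 fell by 0.72 ± 0.09 with miR-608 (0.00565) and rose by 0.84 ± 0.09 with miR-552-3p (0.00314), while its other called probe (ILMN_3251550) was higher with either mimic, by 0.69 and 0.80. Cyclin D1 (CCND1) rose with miR-608 by 0.57 (0.00829), and the cytokine LIF rose with miR-552-3p by 1.55 ± 0.18 (0.00408).

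Of 21 other immediate-early genes, 16 were measured, by 21 probes. With miR-608, 7 probes were higher and 5 lower, and with miR-552-3p 12 were higher and 3 lower, with medians of 0.11 and 0.49, beside the 28.4% and 30.9% called over all probes and their medians of 0.02 and 0.03. FOS, the AP-1 subunit induced in parallel with EGR1, had signals of 626 and 529 on the miR-608 arrays, 462 and 417 on the miR-552-3p arrays, and 1968 and 1432 on the control arrays. It fell by 1.71 ± 0.23 with miR-608 (adjusted p = 0.0068) and fell by 2.15 ± 0.23 with miR-552-3p (0.00317), and like EGR1 its control arrays lay apart. Its dimer partner JUN, at 2797 and 2603 on the miR-608 arrays, 5506 and 5276 on the miR-552-3p arrays, and 1702 and 1375 on the control arrays, rose by 1.00 ± 0.15 with miR-608 (0.00978) and by 2.05 ± 0.15 with miR-552-3p (0.00148). The matricellular gene CCN1 rose by 0.93 ± 0.09 with miR-608 (0.0029) and by 2.04 ± 0.09 with miR-552-3p (0.000997). The zinc finger factor KLF6 and the stress-induced factor ATF3 also rose, by 0.90 ± 0.09 and 0.45 with miR-608 (0.00394 and 0.0165) and by 1.75 ± 0.09 and 1.37 ± 0.08 with miR-552-3p (0.00100 and 0.00104). The nuclear receptor NR4A2 fell with either mimic, with differences of -1.11 ± 0.13 for miR-608 (0.00485) and -1.25 ± 0.13 for miR-552-3p (0.0030). Between the mimics, FOSB was at least 2.30-fold lower with miR-608 than with miR-552-3p (0.00283), at a probe detected on no miR-608 array.

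**Figure D4:**
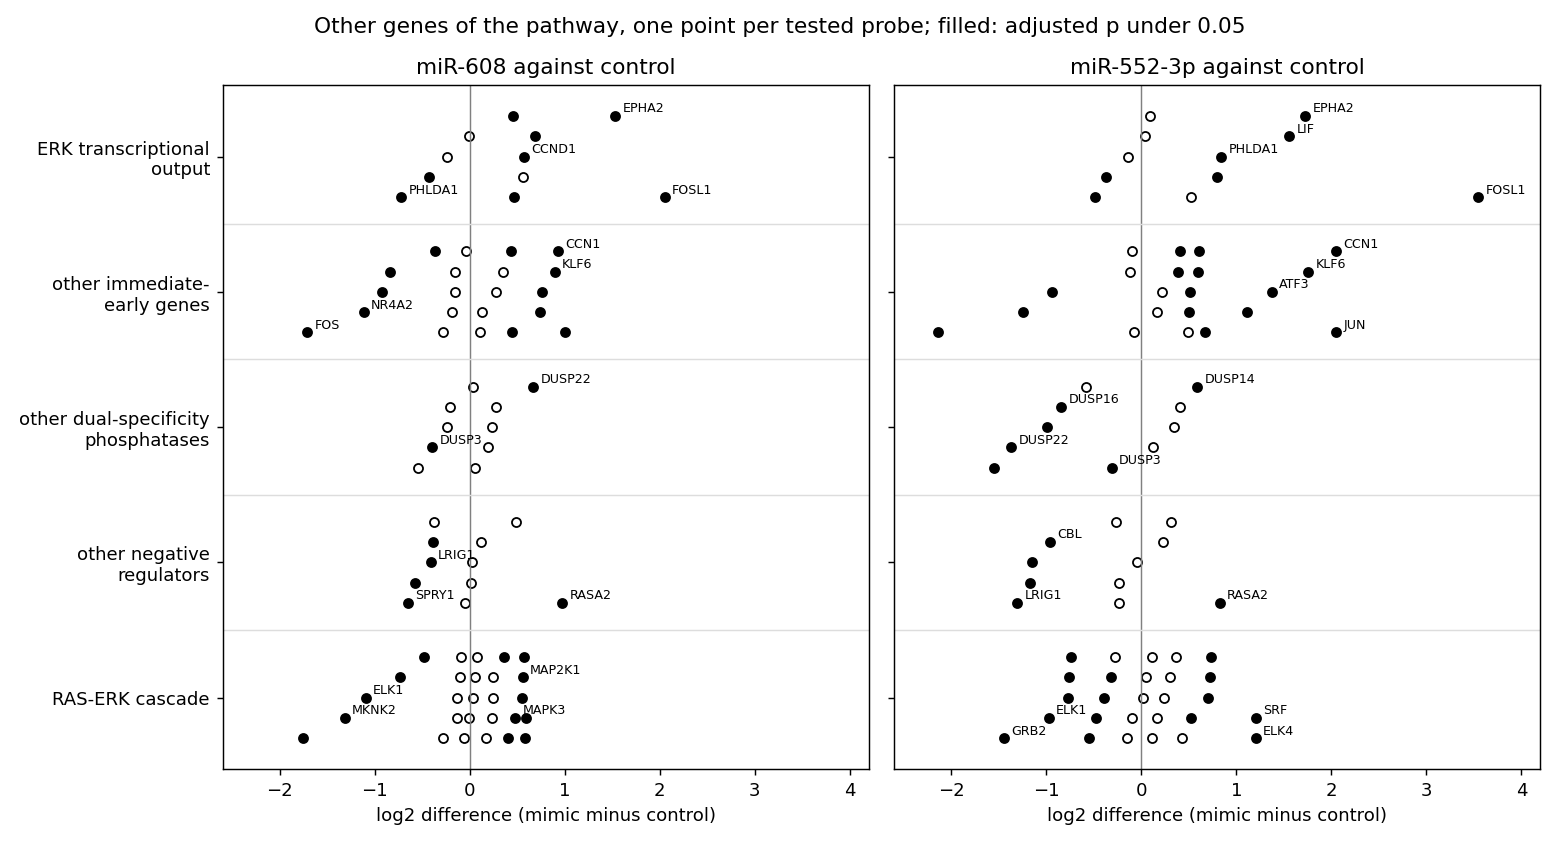
Log2 differences of the tested probes of the 5 lists of other ERK pathway genes, for each mimic against control, with 1 point per probe, filled where called. The medians, not drawn, are 0.47 and 0.52 for ERK transcriptional output and 0.05 and -0.45 for the other dual-specificity phosphatases.

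Of 9 other dual-specificity phosphatases, 8 were measured, by 10 probes. With miR-608, 1 probe was higher and 1 lower, and with miR-552-3p 1 was higher and 5 lower, with medians of 0.05 and -0.45. The 2 calls of 10 with miR-608 compare with 28.4% of all probes and the 6 calls with miR-552-3p with 30.9%, where the medians were 0.02 and 0.03. DUSP22, a phosphatase of the JNK pathway, had 3571 and 3593 on the miR-608 arrays, 1188 and 1238 on the miR-552-3p arrays, and 3165 and 3228 on the control arrays at its brightest probe (ILMN_1813275). The miR-552-3p arrays were the low ones. That probe fell by 1.37 ± 0.08 with miR-552-3p (adjusted p = 0.00100), and the other 2 tested DUSP22 probes were lower too. With miR-608, the DUSP22 probe ILMN_1730765 was higher by 0.67 (0.0319), while ILMN_1813275 and ILMN_1671809 did not pass (0.0734 and 0.521). With miR-552-3p, DUSP16 fell by 0.84 (0.00648) and DUSP14 rose by 0.59 (0.00592). DUSP3, which acts on ERK and JNK, had signals of 4969 and 4654 on the miR-608 arrays, 5126 and 5112 on the miR-552-3p arrays, and 6579 and 6549 on the control arrays, and was lower with either mimic, with differences of -0.39 for miR-608 (0.0188) and -0.32 for miR-552-3p (0.0319).

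Of 11 other negative regulators of RAS and receptors, 8 were measured, by 11 probes, with 1 higher and 4 lower with either mimic and medians of -0.05 for miR-608 and -0.24 for miR-552-3p. All probes had 28.4% and 30.9% called and medians of 0.02 and 0.03. The third Sprouty gene, SPRY1, had signals of 732 and 663 on the miR-608 arrays, 833 and 827 on the miR-552-3p arrays, and 1097 and 1098 on the control arrays at probe ILMN_1691860. All 4 mimic arrays lay below the control, where those of SPRY2 lay above it. SPRY1 fell by 0.65 ± 0.08 with miR-608 (adjusted p = 0.00608), and its difference of -0.24 with miR-552-3p did not pass (0.0866). LRIG1, which promotes receptor degradation, fell by 1.31 ± 0.08 with miR-552-3p (0.00111) and by 0.41 ± 0.08 with miR-608 (0.0217). The ubiquitin ligase CBL fell by 0.96 ± 0.08 with miR-552-3p (0.00201), and its difference of 0.03 with miR-608 did not pass (0.834). The RAS inactivator RASA2 rose by 0.98 (0.0305) with miR-608 and by 0.83 (0.0452) with miR-552-3p. Between the mimics, PEBP1 was higher with miR-608 than with miR-552-3p by 0.39 (0.0295).

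Of 26 genes of the RAS-ERK cascade, 18 were measured, by 27 probes. With miR-608, 8 probes were higher and 5 lower, and with miR-552-3p 6 were higher and 9 lower, with medians of 0.06 and 0.05, where 28.4% and 30.9% of all probes were called and their medians were 0.02 and 0.03. The ELK4 probe ILMN_2273103, counted as higher with miR-608 (adjusted p = 0.0211), was detected on no miR-608 or control array. With miR-552-3p it was at least 1.31-fold higher (0.00271). The ELK4 probe ILMN_1771805 fell by 0.73 with miR-608 (0.0215) and rose by 0.72 with miR-552-3p (0.0200). Another tested ELK4 probe (ILMN_1899842) was not called with either mimic. MAP2K1, which encodes MEK1, rose by 0.56 with miR-608 (adjusted p = 0.0188) and fell by 0.77 with miR-552-3p (0.00669). MAPK3, which encodes ERK1, did likewise at probe ILMN_2402341, with 0.48 for miR-608 (0.0123) and -0.77 for miR-552-3p (0.00308), and at its other tested probe. The ERK-dependent transcription factor ELK1 fell by 1.09 with miR-608 (0.00285) and fell by 0.97 with miR-552-3p (0.00298), and SRF, its partner at CArG boxes, rose by 1.21 ± 0.08 with miR-552-3p (0.00115). MKNK2, a kinase that ERK activates, had signals of 1668 and 1573 on the miR-608 arrays, 2974 and 3123 on the miR-552-3p arrays, and 3857 and 4085 on the control arrays at its bright probe (ILMN_2347068). The miR-608 arrays were lowest, and the probe fell by 1.31 ± 0.07 with miR-608 (0.00158). For GRB2, the adaptor between receptors and RAS, the probes disagreed with miR-552-3p, at -1.45 ± 0.10 for ILMN_1742521 (0.00121) and 0.70 ± 0.12 for ILMN_1748797 (0.0118). Transcript levels of kinases do not measure their activity, which these arrays do not read.

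Among all tested probes of named genes, those closest to a member in the pair of differences against the control were found by Euclidean distance over the 2 comparisons. TNRC6A, a GW182 protein of microRNA silencing, lay nearest to DUSP5 at a distance of 0.0864, followed by UHMK1 (0.0920) and RAB3B (0.0930). For the bright DUSP6 probe they were PHLPP2 (0.0251), PLAUR (0.0293), the urokinase receptor, and MSMO1 (0.0296), and for its dim probe RFX3, TINAGL1 and CLIP4. SPRED1 had CTPS1 (0.0116), ABHD16A and CAVIN3, EGR1 had ASIC1 (0.0462), POLR2E (0.0570) and MTUS1 (0.0966), and IER3 had GRK5 (0.00565), TRIOBP (0.00817) and USP28 (0.0147). The likeness rests on 3 group means of 2 arrays each.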

How the data were processed

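Per the file headers, the authors deposited for each array the mean probe intensity on a linear scale and a detection p-value, exported from GenomeStudio 2011.1, per the submitters' processing notes. No source used here states a background subtraction. A second deposited table holds log2 values of 17751 probes, which equal quantile-normalized signals of probes detected on at least 4 arrays, and it served as an alternative. The intensities were background-corrected with an offset of 16, quantile normalized and log2-transformed with neqc (limma 3.58.1, R 4.3.3), using 770 negative controls inferred from the detection column. A probe was tested if its detection p was below 0.05 on 2 or more arrays (20749 probes). One linear model over the 6 arrays gave 3 contrasts (lmFit and eBayes, two-sided, 3 residual degrees of freedom, Benjamini-Hochberg threshold 0.05), and the steps were tested on simulated data. Log2 differences after the offset understate changes of dim probes. Where a group was undetected on all its arrays, the fold is a lower bound: each dim array enters with its own value or the array's smallest detected value, whichever is larger. Named are every member probe, up to 4 called genes per list and contrast with the smallest p, and the 3 genes nearest to each member called in both contrasts. Members and lists were chosen with earlier results of these data known. Alternatives changed background correction, scaling, detection filter, probe choice, variance model, replicate block and the arrays used. Some listed genes were not analysed here.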

Additional observations from a re-analysis of the deposited data

How the results depend on the processing

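The counts of calls moved by over 1.5 times with no detection filter and with fewer arrays. With no detection filter 3617 probes were called for miR-608 against control, 4249 for miR-552-3p against control, and 5 of the ERK feedback probes for miR-552-3p. With 1 array left out, calls over all probes ranged from 2664 to 4880 for miR-608 against control, from 3472 to 5668 for miR-552-3p against control and from 4837 to 6714 for miR-608 against miR-552-3p. Of the feedback probes 5 to 6, 4 to 8 and 4 to 5 were then called in these comparisons, against 7, 10 and 5 with all arrays. The 4 calls for miR-552-3p were left without miR-552-3p array 2, and 5 without miR-552-3p array 1 or control array 1. Differences changed sign only among uncalled values with 1 array left out. They ranged from -0.49 to 0.23 with miR-608 and -0.32 to 0.40 with miR-552-3p for the dim SPRY4 probe ILMN_1797596 (also -0.21 in the second), and from -0.423 to 0.0861 between the mimics. Between the mimics, DUSP5 ranged from -0.0827 to 0.0153 and SPRED1 from -0.0856 to 0.0559. Same-numbered arrays of different groups did not deviate together over all tested probes (correlations -0.000408, -0.0215 and 0.0256). With 1 difference per group this cannot exclude a pairing that touches only some genes. With the replicate block 7, 10 and 5 feedback probes were called, as without it, and 4843, 5558 and 6746 of all probes. The array slide could not be tested because the headers give none. Probes near background, among them those of DUSP4 and the dim ones of DUSP6 and SPRY4, limit what can be said of those genes.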
